A study of Homo sapiens with 3 samples.

Results

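The polyamine genes described here are 10: ODC1, AMD1, SRM and SMS for synthesis, SAT1 and SMOX for catabolism, OAZ1 and AZIN1 as regulators, and DHPS and DOHH for hypusination. They were chosen by name, through the gene symbols of the array's probes, and 13 probes of 34183 carried them. All 10 were found among 20399 named genes, and 9 of them were among the 10200 genes taken as measured, those at or above the 50th percentile of mean signal. SMOX was left just outside, with a mean log2 signal of 7.02 against a limit of 7.03.

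LNCaP, an established line of androgen-responsive human prostate cancer cells, was transfected with small interfering RNAs (siRNAs) against fragments of tRNAs (SHOT-RNAs) and harvested after 72 h. The 3 knockdowns were each hybridised on 1 two-colour array against cells that received an siRNA to Renilla luciferase (R-Luc). The 5'-Lys knockdown, against the 5' fragment of the lysine tRNA with anticodon CUU, and the 5'-Asp knockdown, against the 5' fragment of the aspartate tRNA with anticodon GUC, used 20 nM siRNA, and the 3'-Asp knockdown, against the 3' fragment of the same aspartate tRNA, used 10 nM. Each knockdown therefore had n = 1, no test was possible, and all values below describe these 3 arrays.

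Ratios are log2 of the first over the second signal column, centred on the array's median over measured genes. The sample labels give Cy3 to the knockdown and Cy5 to the R-Luc control on every array, and the first column behaved as 1 dye throughout, since its ratio to the second over 10 spike-in probes correlated between arrays with Pearson r of 0.999 or more. On the 5'-Lys array the column names give the same assignment as the labels, so a negative ratio there means a lower signal with the knockdown. On both Asp arrays the column names call the first column the control, which turns every sign, and the direction of these arrays is not settled. "Lower" on an Asp array below therefore means lower in Cy3 than in Cy5. With 1 dye orientation, a gene-specific dye effect and a difference between the RNAs cannot be told apart. As a yardstick for spread between arrays, the Cy5 signal of each gene was taken relative to its column's median. Its SD over the 3 arrays was 0.12 for the median gene and exceeded 0.34 for 5% of the measured genes. By the column names Cy5 would hold the knockdown on both Asp arrays. This SD may therefore include knockdown differences and not error alone. Of 10 markers of luminal prostate cells, 8 had probes analysed here, all measured, with signals between 420.0 and 35471. Of 7 markers of other cells, only VIM and COL1A1 passed the signal filter.

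Polyamines (putrescine, spermidine and spermine) are small cations that bind RNA and support translation and growth, and prostate epithelium makes and secretes them in large amounts. Ornithine decarboxylase, encoded by ODC1, makes putrescine, and spermidine synthase (SRM) and spermine synthase (SMS) extend it with aminopropyl groups from S-adenosylmethionine that AMD1 has decarboxylated. SAT1 acetylates spermidine and spermine for export or oxidation, and SMOX oxidises spermine. Antizyme (OAZ1), whose translation needs a polyamine-stimulated frameshift, sends ornithine decarboxylase to the proteasome, and the antizyme inhibitor AZIN1, a relative of the decarboxylase without its activity, binds antizyme. Spermidine also feeds hypusine, the modified lysine of the translation factor eIF5A, which deoxyhypusine synthase (DHPS) and deoxyhypusine hydroxylase (DOHH) make.

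Promoters are shown for SAT1, OAZ1 and ODC1, the members with the lowest ratios on the 5'-Lys array, and for SRM, whose ratios lay near 0. Each sequence holds the 250 bases before the start of transcription, 5' to 3' on the gene's own strand, from RefSeq (GRCh38.p14). SAT1 lies at chrX:23782923-23783172, plus strand, OAZ1 at chr19:2269236-2269485, plus strand, ODC1 at chr2:10448328-10448577, minus strand, and SRM at chr1:11060019-11060268, minus strand. Capitals mark CACGTG (the E-box bound by MYC and its relatives), CCAAT or its reverse complement ATTGG, and TATAA on the gene's strand.
SAT1: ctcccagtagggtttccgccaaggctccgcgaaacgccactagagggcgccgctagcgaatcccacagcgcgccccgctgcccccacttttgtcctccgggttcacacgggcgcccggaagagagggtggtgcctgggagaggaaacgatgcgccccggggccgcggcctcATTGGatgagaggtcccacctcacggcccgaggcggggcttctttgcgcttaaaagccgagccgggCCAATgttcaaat
OAZ1: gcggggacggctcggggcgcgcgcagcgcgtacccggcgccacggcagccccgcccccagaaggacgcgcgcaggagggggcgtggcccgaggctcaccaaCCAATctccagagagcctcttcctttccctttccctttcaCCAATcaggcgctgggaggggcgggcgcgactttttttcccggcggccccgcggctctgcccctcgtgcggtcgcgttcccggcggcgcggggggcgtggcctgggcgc
ODC1: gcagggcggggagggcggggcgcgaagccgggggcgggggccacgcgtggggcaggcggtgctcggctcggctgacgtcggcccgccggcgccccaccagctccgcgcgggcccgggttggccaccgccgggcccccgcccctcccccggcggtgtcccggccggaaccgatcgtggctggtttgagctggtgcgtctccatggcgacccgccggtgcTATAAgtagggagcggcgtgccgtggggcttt
SRM: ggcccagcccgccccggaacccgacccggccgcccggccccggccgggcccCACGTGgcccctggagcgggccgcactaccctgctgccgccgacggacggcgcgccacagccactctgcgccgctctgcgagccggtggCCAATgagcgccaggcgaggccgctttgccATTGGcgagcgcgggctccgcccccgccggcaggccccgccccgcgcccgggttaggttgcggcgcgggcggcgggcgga

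SAT1, OAZ1 and SRM each hold 2 CCAAT motifs, which 32% of 35116 RefSeq promoter windows of this length hold at least once. ODC1 holds TATAA, present in 13.6% of windows, and SRM holds CACGTG, present in 6.34%. Promoter windows were matched for 8 of the 10 members. CACGTG was also found in the windows of DOHH and of the downstream start of ODC1. No motif was shared by SAT1, OAZ1 and ODC1. These matches describe the letters in these windows and nothing about what binds there.

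SAT1 had the lowest ratio of any probe of the 10 genes, and it was on the 5'-Lys array. Its brightest probe (A_23_P137016) gave a signal of 9440 with the 5'-Lys knockdown, against 19394 in the control, which is 2.08-fold lower (log2 ratio -1.06). The other bright probe (A_33_P3371718) gave 5865 with the knockdown, against 11704 in the control, 2.02-fold lower (-1.01). The bright probes thus differed by little on this array, and each showed a lower signal with the knockdown. Both were also lower in Cy3 than in Cy5 on the Asp arrays. Whether these ratios hold a dye effect of the probes was not tested. In RNA from a whole culture, fewer cells with the transcript and less of it per cell cannot be told apart.

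On the 5'-Asp array the same probes had Cy3 signals of 10425 and 7069 and Cy5 signals of 12423 and 8878, with log2 ratios of -0.27 and -0.35. On the 3'-Asp array the Cy3 signals were 9611 and 6245 and the Cy5 signals 13308 and 8450, with log2 ratios of -0.47 and -0.44. Cy3 was below Cy5 on every array, with the widest gap on the 5'-Lys array.

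The remaining SAT1 probe (A_33_P3371727), which the platform annotates to an Ensembl transcript and not to the RefSeq one, was dim and did not follow the others. Its signals were 54.8 in Cy3 and 41.7 in Cy5 on the 5'-Lys array, 22.8 and 30.7 on the 5'-Asp array, and 37.5 and 34.6 on the 3'-Asp array. Its log2 ratios of 0.38, -0.45 and 0.11 enter the mean over probes. With all 3 probes SAT1 therefore stood at -0.56 on the 5'-Lys array, 1.48-fold lower and short of 1.5-fold. That mean lay at percentile 7.56 of the measured genes. The mean of the 2 bright probes was -1.04, 2.06-fold lower. It lay at percentile 1.33 when probes below the signal filter were left out for all genes, a rule chosen after seeing the data.

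The SAT1 ratio on the 5'-Lys array was made by both channels. Relative to the column's median, the log2 signal of the brightest probe was 3.12, 3.49 and 3.32 in Cy3 in the order 5'-Lys, 5'-Asp, 3'-Asp, and 4.18, 3.78 and 3.81 in Cy5. The 5'-Lys array held the lowest Cy3 value and also the highest Cy5 value. When the Cy5 signals of the 3 arrays were averaged to serve as the control, the bright probes had 5'-Lys ratios of -0.76 and -0.82, smaller in size than against the array's own Cy5. On the same control they had -0.48 and -0.42 on the 5'-Asp array, and -0.56 and -0.56 on the 3'-Asp array. The 3-probe mean was then -0.41 on the 5'-Lys array and -0.44 on the 5'-Asp array, so it was not lowest on the 5'-Lys array. By the column names, the averaged Cy5 would hold both Asp knockdowns beside the control. The labels also do not say whether the arrays shared a control RNA.

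**Figure D1:**
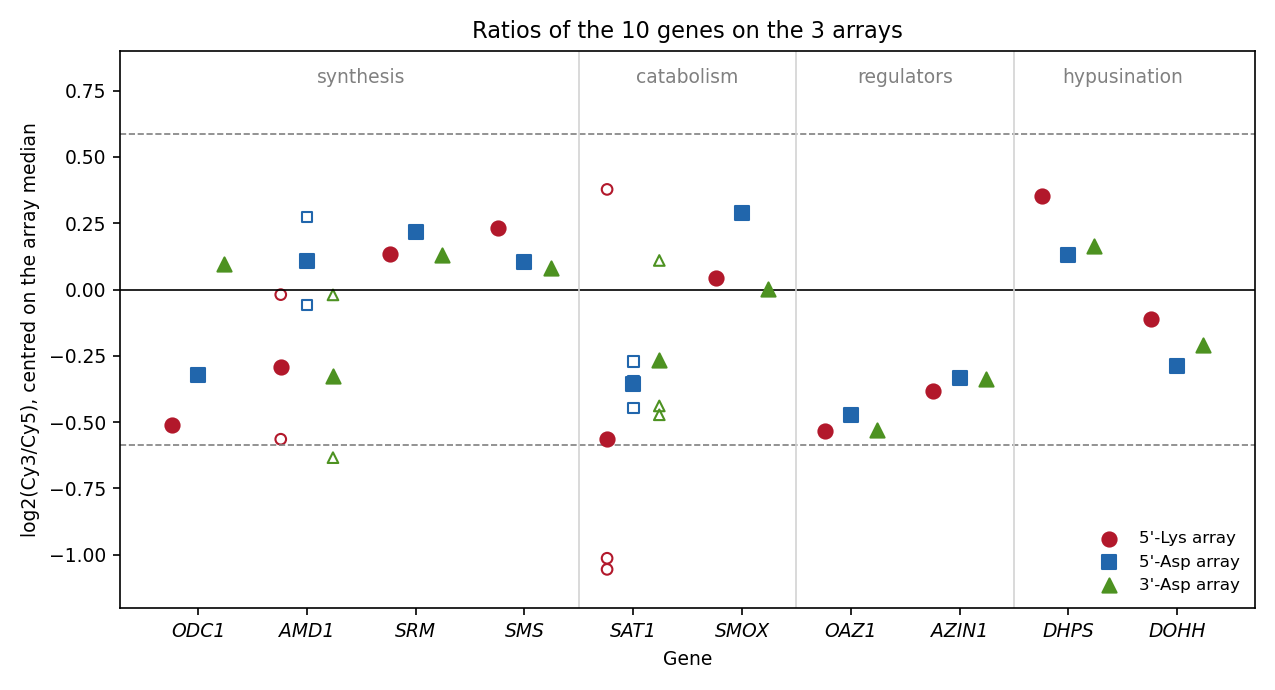
The y axis gives the log2 ratio of Cy3 over Cy5, centred on the array's median, for each of the 10 genes on the x axis. Filled symbols are gene values on the 3 arrays, open symbols are single probes of genes with several (SAT1, AMD1), and dashed lines mark 1.5-fold. Every filled symbol lies within the dashed lines, while single probes beyond them are those of SAT1 at -1.06 and -1.01 on the 5'-Lys array and of AMD1 at -0.63 on the 3'-Asp array. The dim SAT1 probe lies at 0.38 on the 5'-Lys array.

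ODC1, the first enzyme of the pathway, had a lower signal with the 5'-Lys knockdown. Its single probe gave 39664 with the 5'-Lys knockdown, against 55857 in the control, 1.42-fold lower (-0.51). On the 5'-Asp array it gave 42094 in Cy3 and 51942 in Cy5, 1.25-fold lower in Cy3 (-0.32). On the 3'-Asp array it gave 47378 in Cy3 and 44262 in Cy5, a log2 ratio of 0.10.

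The ODC1 ratio of 0.10 on the 3'-Asp array was smaller than the median Cy5 SD, and against the mean Cy5 signal it was -0.03. By the column names the 5'-Asp value would be 0.32, higher with the knockdown.

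AMD1, which supplies the aminopropyl donor, had 2 bright probes that disagreed. Probe A_24_P371962 gave 46203 with the 5'-Lys knockdown, against 67558 in the control (-0.56, 1.48-fold lower). It gave 55111 in Cy3 and 56689 in Cy5 on the 5'-Asp array (-0.06), and 35889 in Cy3 and 55586 in Cy5 on the 3'-Asp array (-0.63, 1.55-fold lower in Cy3). For this probe the Cy5 signals differed little between arrays, with relative log2 values of 5.98, 5.97 and 5.87, while Cy3 stood at 5.41, 5.90 and 5.23.

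The other AMD1 probe (A_33_P3395369) gave 6965 with the 5'-Lys knockdown, against 6979 in the control (-0.02). Its log2 ratios were 0.27 on the 5'-Asp array and -0.02 on the 3'-Asp array. Both probes were highest in Cy3 on the 5'-Asp array, but the size of the difference from Cy5 depended on the probe. The gap between the probes was 0.55, 0.33 and 0.61 in the order 5'-Lys, 5'-Asp, 3'-Asp. The gene means of -0.29, 0.11 and -0.33 are averages of values that differ by that much.

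**Figure D2:**
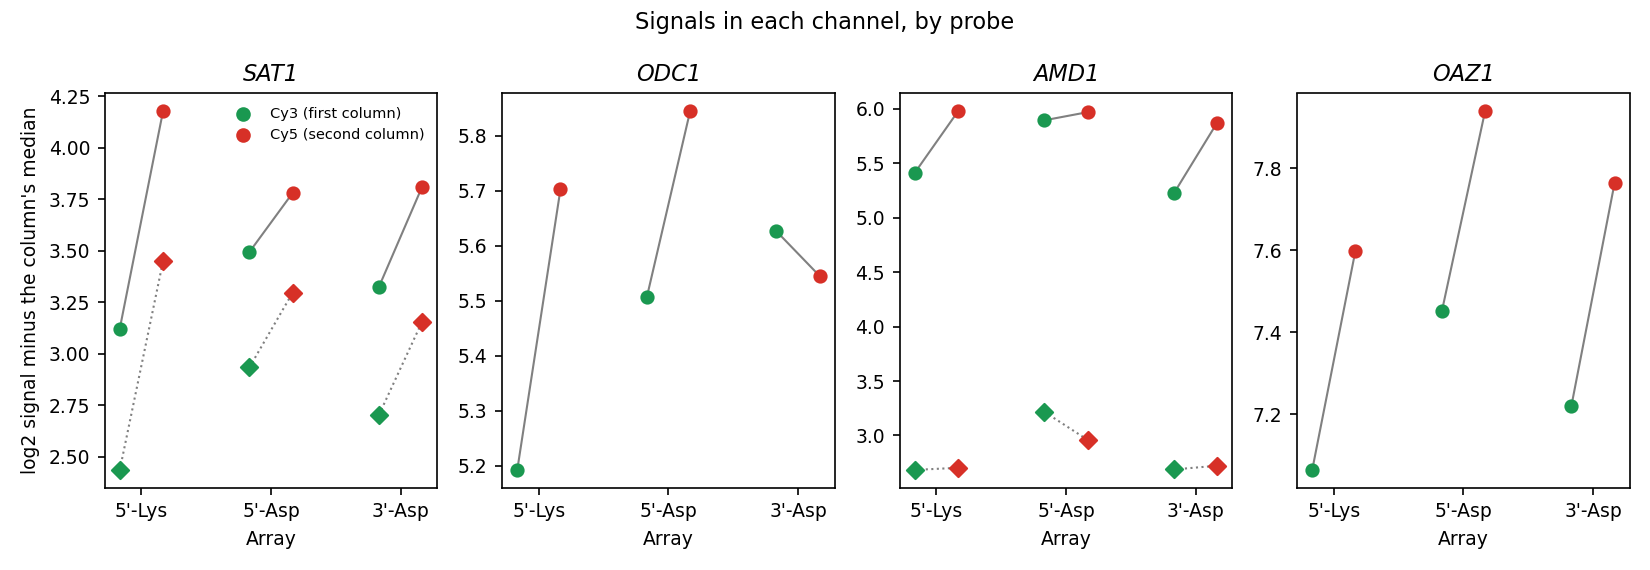
Each panel plots, for 1 gene, the log2 signal minus the column's median (y axis, with its own scale in each panel) in Cy3 and Cy5 of each array. Lines join the channels of an array, and diamonds are the second bright probe of SAT1 and AMD1. The widest SAT1 gap is on the 5'-Lys array, ODC1 turns over on the 3'-Asp array, and the OAZ1 gaps are nearly alike.

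The synthases that follow had small positive ratios on each array. SRM gave 12512 with the 5'-Lys knockdown, against 11275 in the control (0.13), and log2 ratios of 0.22 and 0.13 on the 5'-Asp and 3'-Asp arrays. SMS gave 9218 with the 5'-Lys knockdown, against 7762 in the control (0.23), and 0.11 and 0.08 on the 5'-Asp and 3'-Asp arrays. Against the array's own Cy5, neither synthase was as much as 1.2-fold away from equal signals on any array. This did not hold against the averaged Cy5 signals of the 3 arrays. There SRM had 0.03, 0.32 and 0.13, and SMS 0.29, 0.16 and -0.03, in the order 5'-Lys, 5'-Asp, 3'-Asp.

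SMOX, the spermine oxidase, was dim. Its signals were 153 with the 5'-Lys knockdown, against 146 in the control (0.04). They were 122 in Cy3 and 98.3 in Cy5 on the 5'-Asp array (0.29), and 134 in Cy3 and 133 in Cy5 on the 3'-Asp array (0.00). The oxidase thus did not share the low ratio of the acetyltransferase SAT1 on the 5'-Lys array.

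Both regulators were lower in Cy3 on each array, by nearly the same amount each time. OAZ1, with the brightest probe of the group, gave 145158 with the 5'-Lys knockdown, against 207870 in the control (-0.53, 1.45-fold lower). It gave 161961 in Cy3 and 221790 in Cy5 on the 5'-Asp array (-0.47), and 143093 in Cy3 and 206114 in Cy5 on the 3'-Asp array (-0.53). The SD of these 3 ratios was 0.03, the spread of the Cy5 signal was 0.17, and OAZ1 lay at percentiles 8.67, 7.01 and 3.66 of the measured genes.

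AZIN1, which counters antizyme, gave 5749 with the 5'-Lys knockdown, against 7402 in the control (-0.38, 1.30-fold lower). It gave 4611 in Cy3 and 5734 in Cy5 on the 5'-Asp array (-0.33), and 4910 in Cy3 and 6194 in Cy5 on the 3'-Asp array (-0.34). Its ratios had an SD of 0.03 over arrays. If the column names hold for the Asp arrays, OAZ1 and AZIN1 would be lower with the 5'-Lys knockdown and higher with both Asp knockdowns, by similar amounts. Whether these ratios hold a dye effect of the probes was not tested. No saturation flags were used here.

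The hypusination enzymes differed from each other. DHPS gave 2921 with the 5'-Lys knockdown, against 2260 in the control (0.35, 1.28-fold higher, percentile 85.4). Its log2 ratios on the 5'-Asp and 3'-Asp arrays were 0.13 and 0.16. DOHH gave 1155 with the 5'-Lys knockdown, against 1232 in the control (-0.11), and log2 ratios of -0.29 and -0.21 on the 5'-Asp and 3'-Asp arrays. The DOHH signal in Cy5 had an SD of 0.27 between arrays, as large as its ratios, and against the mean Cy5 signal its 5'-Asp value was 0.01.

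Counted as genes, with all probes averaged, 0 of the 9 measured members were at least 1.5-fold higher or lower on any array. Centred on all named genes instead, 3 (ODC1, SAT1 and OAZ1) were that much lower on the 5'-Lys array and 1 (OAZ1) on the 3'-Asp array. No share over all genes is given for that centring, so these 2 counts have no background beside them. With the centring on measured genes, 4.49% of all measured genes passed 1.5-fold upwards and 6.95% downwards on the 5'-Lys array. The shares were 3.54% and 4.35% on the 5'-Asp array, and 2.30% and 2.56% on the 3'-Asp array. With so few members, a count of 0 is not far from these shares. The medians of the 9 members were -0.29, -0.29 and -0.21 in the order 5'-Lys, 5'-Asp, 3'-Asp, where all measured genes have a median of 0 by centring. With the averaged Cy5 signals as control the median was 0.0073 on the 5'-Asp array and -0.33 on the 3'-Asp array, and by the column names it would be 0.29 and 0.21. Their ratios ran from -0.56 to 0.35 on the 5'-Lys array, from -0.47 to 0.22 on the 5'-Asp array and from -0.53 to 0.16 on the 3'-Asp array. With all probes averaged, 1.35% of measured genes were at least 2-fold lower on the 5'-Lys array, and SAT1, at -0.56, was not among them. The SAT1 value from its bright probes falls past 2-fold, but under another probe rule that was chosen after seeing the data.

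**Figure D3:**
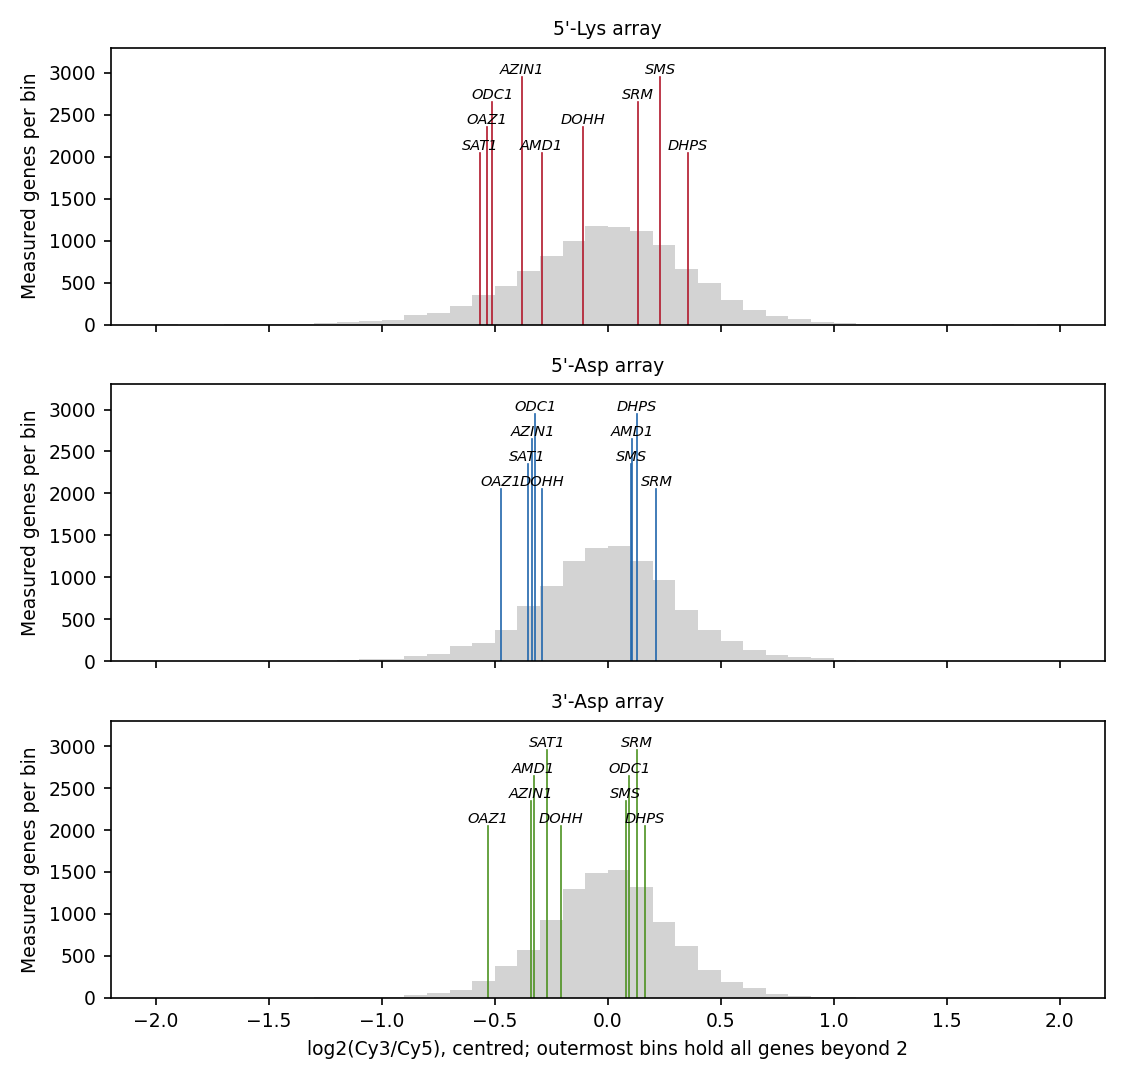
Grey bars count all 10200 measured genes by log2 ratio (x axis) on each array, and coloured lines mark the 9 measured members. OAZ1 is the lowest member on both Asp arrays and SAT1 on the 5'-Lys array, and all 9 lie within 1.5-fold.

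Likeness in pattern was searched among measured genes, with members and uncharacterised loci (LOC, LINC or orf names) left out. Genes whose 3 ratios were most like those of ODC1, by Euclidean distance over the 3 arrays, were TRAM2 (distance 0.03), TSPAN3, CLUH, SLC37A4 and HAUS8 (up to 0.07). TRAM2 had log2 ratios of -0.53, -0.33 and 0.08 in the order 5'-Lys, 5'-Asp, 3'-Asp. Those most like SAT1 as a 3-probe mean were REXO2 (0.03), DCAF5, HOMER1, SMAD4 and MTO1 (up to 0.05). REXO2 had -0.55, -0.34 and -0.25. With only 3 points a gene, near matches are many among 10200 genes.

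The other genes of the pathway came from a list of 31, of which 26 were measured. At least 1.5-fold higher were 2 of them on each array, and lower were 0 on the 5'-Lys array, 1 on the 5'-Asp array and 2 on the 3'-Asp array. Their medians were -0.05, 0.04 and 0.02 in the order 5'-Lys, 5'-Asp, 3'-Asp. As shares of the 26 they stand beside the 4.49%, 3.54% and 2.30% of all measured genes that were higher, and the 6.95%, 4.35% and 2.56% that were lower, in the same order. One of the 2 higher on the 5'-Asp array was MYC, whose value rested on a probe near the floor. One of the 2 lower on the 3'-Asp array was MAT2B, which only just passed 1.5-fold.

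EIF5A, the substrate of hypusination, was higher in Cy3 on all arrays. It gave 7503 with the 5'-Lys knockdown, against 4558 in the control, 1.63-fold higher (0.70). It gave 7017 in Cy3 and 4741 in Cy5 on the 5'-Asp array (0.55), and 7288 in Cy3 and 4266 in Cy5 on the 3'-Asp array (0.77). As with OAZ1, the ratio was similar on the 3 arrays, so a gene-specific dye effect and a knockdown effect cannot be told apart. EIF5AL1, a close copy of EIF5A to which the EIF5A probe may also bind, had -0.10, -0.01 and -0.01. EIF5A2, the second isoform, had -0.04 on both 5' arrays and 0.55 on the 3'-Asp array.

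Upstream of ODC1, the arginine transporter gene SLC7A2 gave 2636 with the 5'-Lys knockdown, against 1386 in the control, 1.88-fold higher (0.91). Its log2 ratios were 0.37 and 0.24 on the 5'-Asp and 3'-Asp arrays. ARG2, the mitochondrial arginase that makes ornithine, gave 4398 with the 5'-Lys knockdown, against 4720 in the control (-0.12). It gave 6173 in Cy3 and 3951 in Cy5 on the 5'-Asp array (0.63), and 6787 in Cy3 and 4040 in Cy5 on the 3'-Asp array (0.75). The ARG2 signal in Cy5 had an SD of only 0.02 between arrays, so its differences between arrays were those of Cy3. MYC, which drives ODC1 transcription, had a gene mean of 0.70 on the 5'-Asp array that rested on a probe near the floor, and its bright probe had -0.31, 0.24 and -0.05. MAX, the partner of MYC, had gene means of -0.21, 0.06 and 0.22 from 3 probes that disagreed. Its brightest probe (A_23_P205549), singled out after its values were seen, gave 2661 with the 5'-Lys knockdown, against 4764 in the control, 1.81-fold lower (-0.86).

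In the methionine salvage pathway, which recycles the methylthioadenosine left by SRM and SMS, ratios differed between enzymes. MTAP, which opens the pathway, had 0.41, -0.03 and 0.11 in the order 5'-Lys, 5'-Asp, 3'-Asp. MRI1, the isomerase after it, had -0.41, -0.45 and -0.81, and gave 375 in Cy3 and 655 in Cy5 on the 3'-Asp array. APIP, the dehydratase, had -0.23, -0.70 and -0.44, and ENOPH1, the enolase-phosphatase, had -0.45, -0.50 and -0.58, all within 1.5-fold. ADI1, the dioxygenase that follows, had 0.05, -0.05 and -0.02. MAT2B, the regulatory subunit of methionine adenosyltransferase, had -0.26, -0.38 and -0.59, while the catalytic subunit gene MAT2A had 0.11, 0.08 and 0.11. The 7 genes of this group had medians of -0.23, -0.38 and -0.44, with 0, 1 (APIP) and 2 (MRI1 and MAT2B) of them at least 1.5-fold lower, beside 6.95%, 4.35% and 2.56% of all measured genes. MAT2B only just passed on the 3'-Asp array, with -0.50 for its brighter probe and -0.67 for its dimmer probe. It fell short there with loess (-0.58), normexp (-0.49) and the brightest probe (-0.51). It stayed past 1.5-fold with the averaged Cy5 control (-0.78) and no signal filter (-0.66).

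Among the remaining genes, OAZ2, the second antizyme, had 0.35, 0.09 and 0.39, in contrast to the negative values of OAZ1. PAOX, the acetylpolyamine oxidase downstream of SAT1, had -0.16, -0.42 and -0.02. Probes of PAOX and MTAP differed by 0.60 and 0.41 on the 5'-Asp array. The polyamine transporter gene ATP13A3 had gene means of -0.31, -0.09 and -0.18, but its probes disagreed. Its brighter probe (A_24_P183094) gave 1922 with the 5'-Lys knockdown, against 3463 in the control, 1.82-fold lower (-0.87), and its dimmer probe (A_33_P3225327) gave 316 and 264 (0.24). ARG1, AGMAT and ATP13A4 had ratios past 1.5-fold on at least 1 array but lay below the signal filter.

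**Figure D4:**
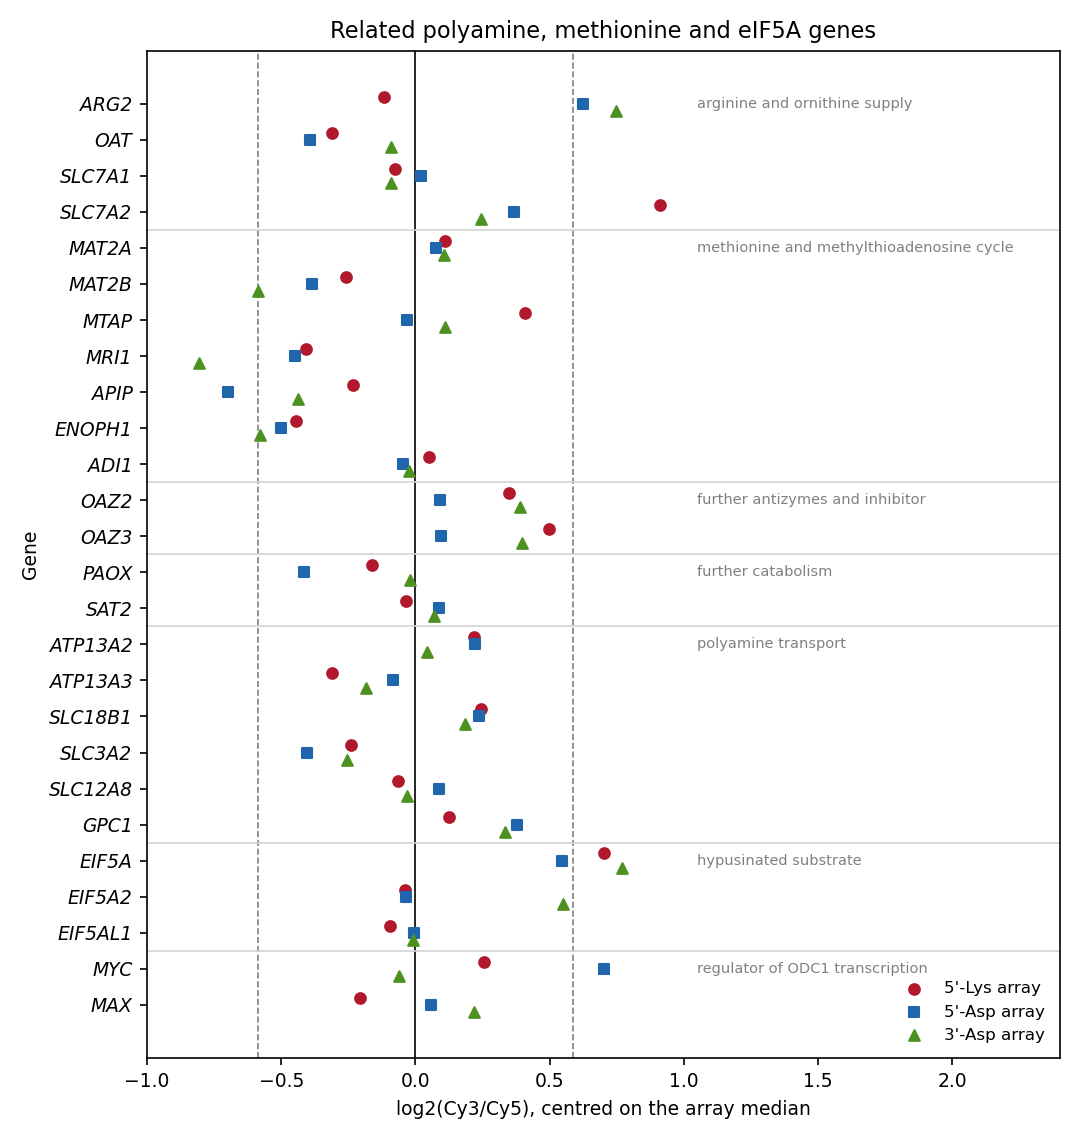
The x axis gives the log2 ratio of Cy3 over Cy5, centred on the array's median, for the 26 measured related genes (rows, grouped by role) on the 3 arrays, and dashed lines mark 1.5-fold. EIF5A lies right of 0 on all arrays at 0.70, 0.55 and 0.77, while MRI1, APIP and ENOPH1 lie left of it and ADI1 lies near it.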

How the data were processed

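TRIzol extracts of LNCaP RNA were hybridised on two-colour arrays by a service company, per the labels. The deposited intensity tables give 2 signal columns for each of 3 arrays. They are called raw, per the file headers, yet the 2 medians of an array were nearly equal (94.0 and 95.0, 70.7 and 70.9, 79.7 and 80.9). The deposited score table holds signed folds of the first over the second column times 1 constant per array (log2 of -0.021 for 5'-Lys, -0.017 for 5'-Asp, -0.013 for 3'-Asp). The scans were read with software not given in the sources used here.

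Symbols of 28048 probes came from the platform annotation, of which 25515 were set to RefSeq names by accession. Probes of 1 gene were averaged on the log2 scale. Intensities were used as given and ratios were centred on the median of measured genes. The search for genes near in pattern left out members and uncharacterised loci. Named genes were all members, fixed related genes and any related gene past 1.5-fold, plus the 5 nearest genes in pattern to ODC1 and SAT1. ENOPH1, ADI1, EIF5A2, EIF5AL1 and MAX were named from the related list in addition, outside that rule. Probes of a member are given alone where they differed by over 0.3, and those of ATP13A3, MYC and MAX were singled out after their values were seen. Members and lists were chosen with earlier results of these data known. Alternatives used limma 3.58.1 in R 4.3.3 (loess, normexp with an offset of 50, Aquantile scaling), other filters, probe rules, thresholds and directions. The number of arrays limits the precision. The ratio step was tested on simulated data. The other steps ran in Python 3.11.15 with pandas 2.3.3 and numpy 2.4.6.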

Additional observations from a re-analysis of the deposited data

How the results depend on the processing

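The count of members at least 1.5-fold lower on the 5'-Lys array was 0 with all probes averaged. It became 1 with normexp background correction (SAT1), 1 with the averaged Cy5 signals as control (OAZ1), 1 with the brightest probe per gene (SAT1), 1 with probes below the signal filter left out (SAT1, an alternative chosen after seeing the data) and 3 with no signal filter (ODC1, SAT1 and OAZ1, which lay close to the threshold, as that setting moves the centre). On the 3'-Asp array it became 1 with no signal filter (OAZ1) and 1 with the brightest probe (AMD1). Shares of all genes past 1.5-fold are given only for all probes averaged and centred on measured genes. The counts under the other settings therefore have no background of their own. The median of the members moved to 0.0073 on the 5'-Asp array and -0.33 on the 3'-Asp array with the averaged Cy5 control, and to 0.29 and 0.21 on these arrays with the direction of the column names. By the column names, the averaged Cy5 control would also hold both Asp knockdowns. The cause was not tested where none is named. The column names turned all 20 member values of the Asp arrays, the averaged Cy5 control turned 3 of 30 values (ODC1 and SMS on the 3'-Asp array, DOHH on the 5'-Asp array), and every other setting turned at most 2. Loess and the filter at the 75th percentile left all counts at 0. So did the deposited folds, which differ from the ratios used here only by 1 constant per array. The 2-fold threshold could not raise a count that was 0 at 1.5-fold. No paired analysis was possible because each knockdown has 1 array and no test. Intensities near the floor and the single orientation of the dyes limit the dim probes most.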
